A study of Mus musculus with 20 samples.

Results

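Lrrc55, Ptchd1, Rprm and Syne1 are 4 of the 24421 genes counted in 20 RNA-seq libraries of mouse neocortex (NCX) and hippocampus (HP). They were picked on these same libraries because the effect of the genotype on them differed between the regions, so every value of that effect given here describes the choice and is not a test of it. The libraries came from mice of 3 months, with 5 libraries for each of 4 groups. Control mice carried floxed App, Aplp1 and Aplp2 without Cre recombinase and are labelled wild type in the deposited descriptions. Conditional triple knockout (cTKO) mice carried the same floxed alleles with a Camk2a-Cre transgene, which deletes the APP family from excitatory neurons of the forebrain after birth and leaves it in other cells. The mice were littermates of both sexes on a mixed C57BL/6J and 129 background. All 4 genes were counted in every library and passed the filter on low counts.

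The 4 genes have unlike roles. Lrrc55 encodes an auxiliary gamma subunit of the BK channel, the large-conductance potassium channel that opens with calcium and depolarization, and its family shifts the voltage at which the channel opens. Ptchd1 encodes a membrane protein related to Patched, the receptor of Hedgehog ligands, lies on the X chromosome and is mutated in forms of intellectual disability and autism. Rprm encodes Reprimo, a small protein induced by p53 that halts the cell cycle at G2, and its RNA is also found in neurons that no longer divide. Syne1 encodes nesprin-1, a giant spectrin-repeat protein that ties the nuclear envelope to the cytoskeleton through the LINC complex, and shorter products of the same gene act at synapses.

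In the GENCODE annotation of GRCm38, Lrrc55 spans chr2:85162334-85197197, Ptchd1 chrX:155573455-155623814, Rprm chr2:54084093-54085552 and Syne1 chr10:5020917-5551482, all on the minus strand. Rprm has 1 exon and a protein of 109 residues, Lrrc55 a protein of 311 residues and Ptchd1 a protein of 888 residues. The longest coding transcript of Syne1 has 146 exons and encodes 8799 residues, and the deposited counts add up all transcripts of a gene. Noncoding genes on the opposite strand share 210 and 266 bases of exon with Lrrc55 and 210 bases with Ptchd1, and none of them has a row in the count files. Whether the counting used strand is not given in the sources used here, so reads from these stretches cannot be assigned to a strand.

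The RefSeq promoters of the 4 genes, from 250 bases before the transcription start to 50 after it, are shown because these genes were picked for the same pattern and their promoters can be compared. They are written 5′ to 3′ on the strand of the gene, and capitals mark CG dinucleotides. For Syne1, which has 3 RefSeq starts in the table, the one nearest the 5′ end of the gene is shown.
Lrrc55, chr2:85198701-85199000: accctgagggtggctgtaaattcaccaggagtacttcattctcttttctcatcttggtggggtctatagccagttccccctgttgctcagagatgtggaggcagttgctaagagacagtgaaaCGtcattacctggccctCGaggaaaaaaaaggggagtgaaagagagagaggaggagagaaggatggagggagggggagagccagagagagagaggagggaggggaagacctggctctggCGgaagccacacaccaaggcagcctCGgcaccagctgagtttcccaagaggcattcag
Ptchd1, chrX:155623278-155623577: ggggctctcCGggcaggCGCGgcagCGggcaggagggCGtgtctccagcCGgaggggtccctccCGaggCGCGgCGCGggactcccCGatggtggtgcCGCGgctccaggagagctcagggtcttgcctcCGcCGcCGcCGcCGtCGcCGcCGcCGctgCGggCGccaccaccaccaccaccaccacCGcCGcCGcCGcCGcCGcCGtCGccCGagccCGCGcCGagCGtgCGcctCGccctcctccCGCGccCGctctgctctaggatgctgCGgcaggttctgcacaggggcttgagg
Rprm, chr2:54085503-54085802: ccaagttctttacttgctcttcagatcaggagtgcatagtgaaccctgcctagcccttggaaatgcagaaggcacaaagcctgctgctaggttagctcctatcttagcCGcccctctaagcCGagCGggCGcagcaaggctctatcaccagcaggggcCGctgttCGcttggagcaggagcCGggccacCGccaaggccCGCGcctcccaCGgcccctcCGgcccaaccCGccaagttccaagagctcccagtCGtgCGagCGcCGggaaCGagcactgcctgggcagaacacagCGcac
Syne1, chr10:5550643-5550942: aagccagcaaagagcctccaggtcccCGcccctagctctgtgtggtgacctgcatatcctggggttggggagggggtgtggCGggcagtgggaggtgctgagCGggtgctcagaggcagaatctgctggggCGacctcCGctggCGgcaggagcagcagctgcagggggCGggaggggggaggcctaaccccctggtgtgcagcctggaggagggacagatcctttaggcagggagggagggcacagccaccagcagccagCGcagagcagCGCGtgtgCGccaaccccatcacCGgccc

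The promoters differed in base composition. The Ptchd1 window held 44 CG dinucleotides and 79.0% G or C, the Rprm window 19 and 63.3%, the Syne1 window 12 and 69.0% and the Lrrc55 window 4 and 54.7%. Over the 32851 RefSeq promoters of GRCm38.p6 the medians were 7 and 52.7%. The Lrrc55 start of RefSeq lies outside the GENCODE gene, on its upstream side. Letters of 6 common motifs were searched on both strands: TGACGTCA, the cAMP response element, in 1.79% of all promoters, TGANTCA, the AP-1 site, in 7.81%, GGGCGG, the GC box, in 35.7%, CCAAT in 37.4%, TATAAA in 13.6% and CACGTG, the E-box, in 7.15%. The Rprm window held 1 GC box and the Syne1 window 2, no motif overlapped another there, and the Lrrc55 and Ptchd1 windows held none of the 6.

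Total counts were 19552353 to 25331954 per hippocampal and 12169474 to 24842764 per neocortical library. Levels are given in CPM, counts relative to the library total after TMM scaling in edgeR, and on this scale 3 counts, the smallest level taken as detectable, came to between 0.118 and 0.247 CPM. The 4 genes lay far above it, with 196 to 789 counts per library for Lrrc55, 156 to 727 for Ptchd1, 431 to 2406 for Rprm and 7410 to 18066 for Syne1. App, Aplp1 and Aplp2 were lower in cTKO mice, with log2 changes between -2.10 and -1.25 over both regions. The library cTKO HP 4 and the library cTKO NCX 5 stood apart by embryonic globins, a summed 189 and 292 CPM over a list of embryonic markers against at most 1.48 CPM in the other 18 libraries. In each group, 2 libraries had Xist, the RNA of the inactive X chromosome, at 413 CPM or more and 3 had it at 0.623 CPM or less. Summed over their lists, dentate granule and deep-layer neocortical markers followed the labels, while CA1 pyramidal markers did not separate the regions. Dentate granule markers summed to 336 to 469 CPM in hippocampal and 138 to 183 CPM in neocortical libraries, and deep-layer neocortical markers to 215 to 257 CPM and 412 to 488 CPM. Of the deep-layer list, Hs3st4 and Tle4 were nonetheless called higher in the hippocampus, by log2 differences of 0.77 and 0.19. Calb1 of the dentate list was not called between the regions, at -0.10. CA1 pyramidal markers summed to 395 to 748 CPM in hippocampal and 424 to 734 CPM in neocortical libraries. Of that list, Fibcd1 and Spink8 were higher in the hippocampus, by 3.65 and 5.33. Wfs1 was lower there, at -0.78, and Mpped1 was not called, at -0.01.

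Lrrc55 was lowest in control hippocampus, higher in cTKO hippocampus and highest in the neocortex of either genotype. Its level in control HP libraries 1 to 5 was 10.96, 12.4, 13.2, 11.7 and 10.3 CPM, and in cTKO HP libraries it was 22.4, 26.0, 19.9, 22.4 and 18.1 CPM. Every cTKO library of the hippocampus therefore lay above every control library. In the neocortex, the control libraries had 32.4, 33.2, 28.6, 29.0 and 32.2 CPM and the cTKO libraries 27.4, 29.2, 25.4, 27.1 and 31.3 CPM, so the genotypes overlapped and 3 cTKO libraries lay below all controls. The hippocampal means were 11.7 ± 1.16 CPM in control and 21.8 ± 3.01 CPM in cTKO mice (SD, n = 5), a log2 change of 0.89 (standard error 0.11, 95% interval 0.66 to 1.13) or 1.86-fold. In the neocortex, the means were 31.1 ± 2.14 CPM in control and 28.1 ± 2.27 CPM in cTKO mice, a log2 change of -0.14 with an interval of -0.31 to 0.03. The changes differed by 1.04 on the log2 scale (standard error 0.13).

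Ptchd1 followed the same course at lower CPM, a scale that does not allow for the length of a gene. The control HP libraries had 7.84, 9.02, 9.22, 8.85 and 9.0 CPM, and the cTKO HP libraries had 13.5, 15.6, 19.0, 18.6 and 13.6 CPM, again with no overlap. The neocortical libraries had 29.8, 26.7, 26.4, 26.7 and 27.5 CPM in controls and 25.3, 24.8, 18.6, 26.2 and 27.3 CPM in cTKO mice, of which 4 cTKO libraries lay below all controls and library 3 was the lowest. The hippocampal means were 8.79 ± 0.544 and 16.1 ± 2.62 CPM, a log2 change of 0.87 (standard error 0.12, 95% interval 0.62 to 1.12) or 1.83-fold. The neocortical means were 27.4 ± 1.41 and 24.4 ± 3.38 CPM, a log2 change of -0.16 with an interval of -0.37 to 0.05. The difference between the regions was 1.04 (standard error 0.15), close to that of Lrrc55.

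Rprm had the largest change of the 4 and the widest spread. Its control HP libraries lay close together at 22.9, 22.2, 19.6, 24.4 and 23.7 CPM. The cTKO HP libraries had 98.7, 94.3, 40.0, 95.2 and 56.7 CPM, so all lay above the controls, but 3 were at 94.3 CPM or more and libraries 3 and 5 were far lower. The neocortical controls had 43.7, 44.7, 48.4, 42.8 and 43.1 CPM and the cTKO libraries 55.4, 61.4, 40.6, 57.9 and 42.1 CPM, with libraries 1, 2 and 4 above all controls and libraries 3 and 5 below all of them. The hippocampal means were 22.6 ± 1.86 and 77.0 ± 26.8 CPM, a log2 change of 1.77 (standard error 0.22, 95% interval 1.30 to 2.24) or 3.41-fold. The neocortical means were 44.5 ± 2.28 and 51.5 ± 9.52 CPM, a log2 change of 0.22 with an interval of -0.01 to 0.45, and the changes differed by 1.56 (standard error 0.26). The standard deviation of log2 CPM within groups was 0.33 for Rprm, at the 83.1 percentile of the 14192 genes of the 20-library fit, against 0.14 for Lrrc55, 0.17 for Ptchd1, 0.17 for Syne1 and a median of 0.17.

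Syne1 had a smaller difference, made up of values on both sides of 0. The control HP libraries had 398, 385, 382, 413 and 481 CPM and the cTKO HP libraries 456, 623, 706, 601 and 496 CPM, so library 1 of the cTKO mice lay within the control range. The neocortical controls had 741, 664, 648, 628 and 609.6 CPM and the cTKO libraries 515, 621, 488, 546 and 549.8 CPM, of which 4 lay below all controls. The hippocampal means were 412 ± 40.6 and 577 ± 101 CPM, a log2 change of 0.49 (standard error 0.11, 95% interval 0.24 to 0.73) or 1.40-fold. The neocortical means were 658 ± 50.8 and 544 ± 49.8 CPM, a log2 change of -0.27 with an interval of -0.42 to -0.11. The difference of 0.76 (standard error 0.14) thus joined a higher level in cTKO hippocampus to a lower one in cTKO neocortex, and neither change passed the threshold over all genes of its region.

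**Figure D1:**
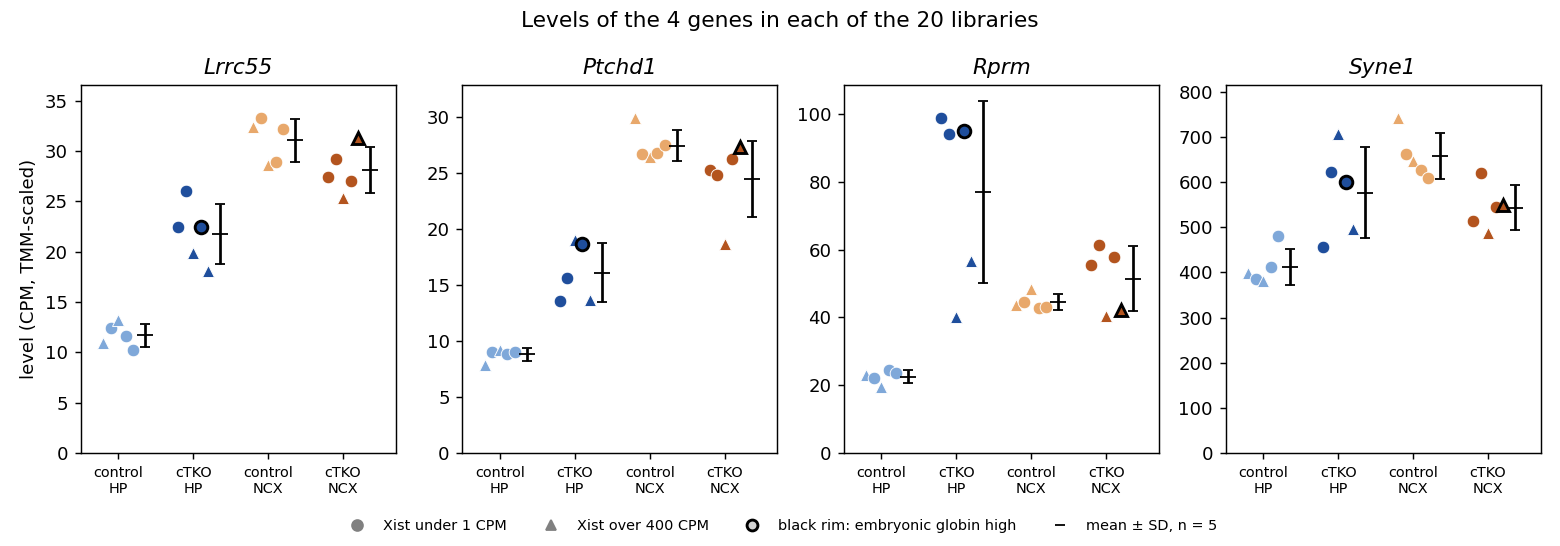
Level of each gene in CPM in the 20 libraries, by genotype and region, with the mean and SD of the 5 libraries beside each group. Triangles are libraries with high Xist, circles those with low Xist, and a black rim marks the libraries with embryonic globins. The cTKO HP libraries lie above all control HP libraries for Lrrc55, Ptchd1 and Rprm, and 4 of 5 do for Syne1.

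Read against all genes, calls of this kind were rare. By the quasi-likelihood test of edgeR, adjusted after Benjamini and Hochberg, 8 of 14192 genes, 0.0564%, had a difference between the regions at a false discovery rate (FDR) under 0.05. The 4 members were among these 8 because they were selected on that contrast, with an FDR of 0.00124 for Lrrc55, 0.00444 for Ptchd1, 0.0146 for Rprm and 0.0418 for Syne1. Among the others were Penk, Drd1 and Trpa1, with differences of 1.91, 1.54 and -5.01 on the log2 scale. Syne1 was the gene just inside the threshold, and Ppl and Sh2d5, at 1.76 and 0.66 with an FDR of 0.0525, were just outside it.

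Within the hippocampus, Lrrc55, Ptchd1 and Rprm were among the 43 genes called higher in cTKO mice, 0.314% of 13702, with an FDR of 0.00274, 0.00487 and 0.00274. Syne1 was not, at an FDR of 0.0947. No overlap between the 5 cTKO and the 5 control libraries, with cTKO higher, was seen in 1.91% of the genes, Lrrc55, Ptchd1 and Rprm included. In the neocortex, 0.188% of 13843 genes were called in either direction and no member was among them. The FDR there was 0.578 for Lrrc55, 0.614 for Ptchd1, 0.501 for Rprm and 0.187 for Syne1. The name of genes changed in the hippocampus alone describes these calls for Lrrc55, Ptchd1 and Rprm, and it does not describe Syne1, which was called in neither region by this test. A missing call in the neocortex does not show that the level was unchanged there.

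Without cTKO HP 4 and cTKO NCX 5, the libraries with embryonic globins, Lrrc55 had log2 values of 0.88 for the hippocampus and -0.19 for the neocortex, a difference of 1.07. Ptchd1 had 0.81 and -0.21, a difference of 1.02, and Rprm had 1.68 and 0.27, a difference of 1.40. For these genes the differences kept an FDR under 0.05 (0.00272, 0.00713 and 0.0437). Their neocortical values had an unadjusted p of 0.0253, 0.0492 and 0.0184 in edgeR's test, and none was called. Of all genes, 12% had an unadjusted p under 0.05 in that neocortical fit. Syne1 had 0.46 and -0.28, and its difference of 0.75 no longer passed, at an FDR of 0.0832. The Syne1 difference also had an FDR above 0.05 in 15 of the 20 fits that left out any 1 library, up to 0.128, while its size stayed between 0.68 and 0.82. The 5 exceptions were the fits without control HP 5, cTKO HP 1, cTKO HP 3, cTKO HP 5 and cTKO NCX 2. In all 20 such fits the differences of Lrrc55, Ptchd1 and Rprm kept an FDR under 0.05. In bulk tissue, more cells that hold a transcript and more transcript per cell cannot be told apart.

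**Figure D2:**
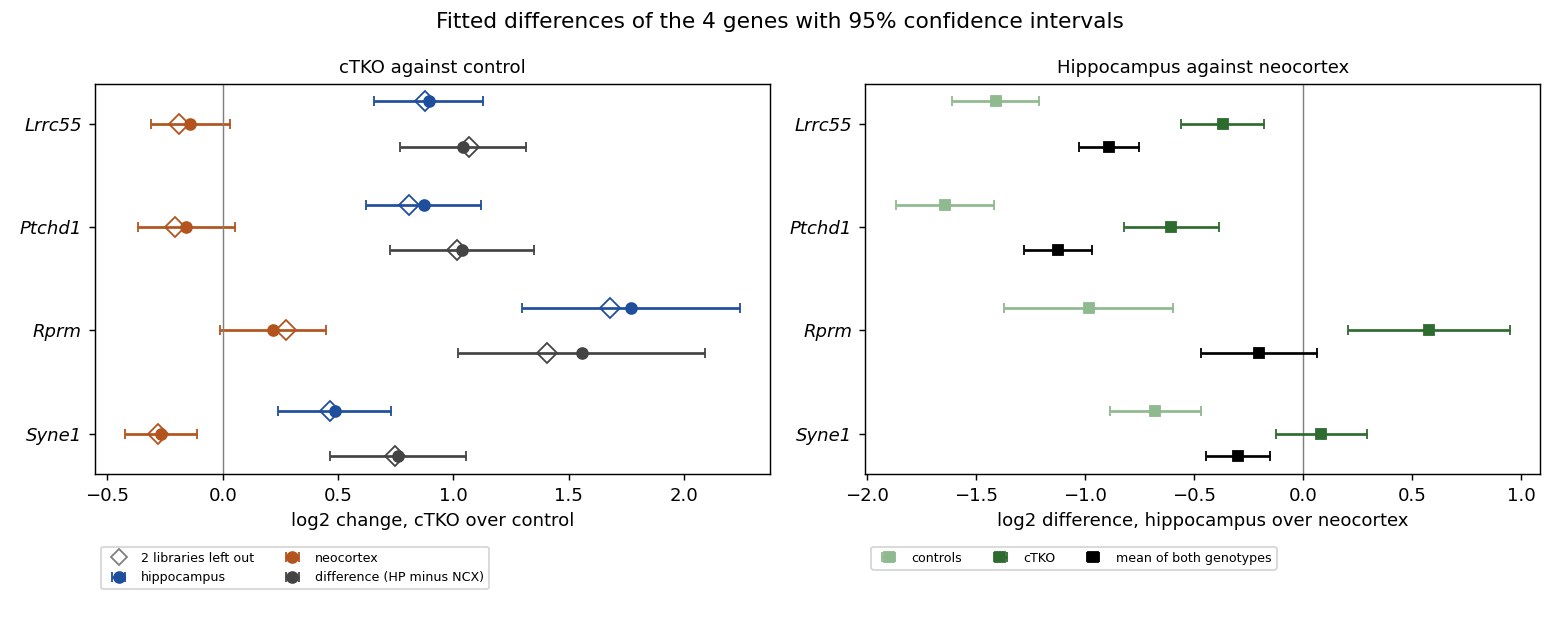
Left, log2 changes of cTKO over control in each region and their difference, with 95% intervals, and open diamonds for the fits without cTKO HP 4 and cTKO NCX 5. Right, log2 difference of hippocampus over neocortex in controls, in cTKO mice and averaged over genotypes. Rprm stands at 1.77 for the hippocampus and 0.22 for the neocortex, and the averaged regional difference of Ptchd1 was -1.12.

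The regional difference averaged over the genotypes was not used to pick the genes, and here the members could be tested. Lrrc55, Ptchd1 and Syne1 were lower in the hippocampus than in the neocortex. The log2 difference was -0.89 for Lrrc55 (standard error 0.07, edgeR FDR 1.57e-10), -1.12 for Ptchd1 (standard error 0.08, edgeR FDR 3.09e-11) and -0.30 for Syne1 (standard error 0.07, edgeR FDR 0.000973). For Rprm it was -0.20 with a 95% interval of -0.47 to 0.06 and an FDR of 0.175, so it did not pass in this fit. With a block for the library number, whose meaning the labels do not give, it was -0.23 and passed at an edgeR FDR of 0.0134. A lower level in the hippocampus was called in 30.5% of the 14192 genes. RNA of the neocortex and of the hippocampus was extracted with different kits, and region and kit cannot be told apart. Both regions were collected from 5 mice of each genotype, and the fit treats the libraries as independent.

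The gap between the regions was smaller in size in cTKO mice for every member and changed sign for Rprm and Syne1, which restates the values that picked them. In controls, the hippocampus was lower than the neocortex by log2 differences of -1.41 for Lrrc55, -1.64 for Ptchd1, -0.98 for Rprm and -0.68 for Syne1. In cTKO mice the differences were -0.37, -0.60, 0.58 and 0.08. Rprm was thus higher in the hippocampus of cTKO mice (edgeR FDR 0.0106), and Syne1 was not called there (edgeR FDR 0.510). The averaged value of Rprm joins opposite signs. The level of Lrrc55 and Ptchd1 in every cTKO HP library stayed below the lowest control NCX library. For Rprm, 4 of the 5 cTKO HP libraries lay at or above the lowest control NCX library, and for Syne1 2 did.

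In the order of levels, Lrrc55 and Ptchd1 went from control HP through cTKO HP and cTKO NCX to control NCX. The neighbouring cTKO groups overlapped by their extreme libraries for both genes, and so did the neocortical groups. The order for Rprm ran from control HP through control NCX and cTKO NCX to cTKO HP, and beyond control HP the neighbouring groups overlapped. For Syne1 it ran from control HP through cTKO NCX and cTKO HP to control NCX, and only control HP was separate from its neighbour, by 481 against 488 CPM. Between genes, levels can be set side by side only per length of exon. In control hippocampus, Rprm had 15.4, Syne1 10.2, Ptchd1 2.92 and Lrrc55 1.81 CPM per kilobase of all annotated exons. With the longest GENCODE transcript linked to RefSeq as the length, Syne1 had 58.9, Lrrc55 4.03 and Ptchd1 3.17 CPM per kilobase, so Lrrc55 and Ptchd1 changed places. For Syne1 that transcript has 6990 bases, while its longest coding transcript has 26397 coding bases and the counts add up all transcripts. Which transcripts supplied the reads was not tested, so the value of 58.9 may overstate Syne1 and that of 10.2 may understate it. The order of Syne1 against Rprm cannot be read from them.

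The libraries of Rprm at the low end were those with high Xist. In cTKO hippocampus, Rprm was at 40.0 and 56.7 CPM in the libraries with high Xist and between 94.3 and 98.7 CPM in those with low Xist. In cTKO neocortex, it was at 40.6 and 42.1 CPM with high Xist and between 55.4 and 61.4 CPM with low Xist. The libraries with embryonic globins are among these, cTKO NCX 5 at 42.1 CPM with high Xist and cTKO HP 4 at 95.2 CPM with low Xist. Control libraries showed no such split, with 19.6 to 22.9 against 22.2 to 24.4 CPM in the hippocampus and 43.7 to 48.4 against 42.8 to 44.7 CPM for neocortical libraries. In fits of each region chosen after seeing the data, libraries with low Xist, 3 per group, gave Rprm a hippocampal log2 change of 2.04 and a neocortical one of 0.42. Those with high Xist, 2 per group, gave 1.17 and -0.14. The difference between the regions was 1.61 with low and 1.32 with high Xist. Those of the other members were 1.21 and 0.74 for Lrrc55, 0.91 and 1.21 for Ptchd1 and 0.57 and 1.02 for Syne1. With low Xist the differences of Lrrc55 and Rprm passed the FDR threshold, and with high Xist none of the 4 did. The classes held 3 and 2 libraries per group, and the members were picked on this contrast. A pass in a single class therefore does not show that the classes differ. The part of Xist, or of what else these few mice had in common, was not tested.

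Lrrc55 showed the same order in cTKO hippocampus, 18.1 and 19.9 CPM with high Xist against 22.4 to 26.0 CPM with low Xist, but not in cTKO neocortex, where the ranges overlapped. Its log2 change in the hippocampus was 1.05 in the libraries with low Xist and 0.64 in those with high Xist. The X-linked Ptchd1 overlapped between the classes in all 4 groups, and its hippocampal change was 0.83 with low and 0.92 with high Xist. The hippocampal log2 value of Syne1 was 0.39 with low and 0.61 with high Xist. With Xist as a covariate of all 20 libraries, the differences between the regions were 1.04 for Lrrc55, 1.04 for Ptchd1, 1.56 for Rprm and 0.76 for Syne1, the last at an FDR of 0.0559.

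Across the 20 libraries, which share the groups that picked the genes, Lrrc55 and Ptchd1 went together most closely (Pearson r = 0.96 of log2 CPM). Each was the gene most like the other among all those in the fit. After Ptchd1, the genes most like Lrrc55 were Necab3 and Drd1 (r = 0.93 and 0.93), and after Lrrc55 those most like Ptchd1 were Dcx and Rgs4 (0.94 and 0.94). The genes most like Rprm were Exoc7, Penk and Tagln3 (0.86, 0.82 and 0.82), and those most like Syne1 were Pde4dip, Senp2 and Usp4 (0.86, 0.85 and 0.83). Drd1 and Penk are, with the members, among the 8 genes whose genotype effect differed between regions.

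With the group means removed, r between Lrrc55 and Ptchd1 was 0.34 over the 20 libraries, 0.18 in the 10 hippocampal and 0.64 in the 10 neocortical ones, where it was the highest of the 6 pairs. Over the 20 libraries Ptchd1 and Syne1 had the highest r, at 0.66, with 0.74 in the 10 hippocampal and 0.57 in the 10 neocortical libraries. The correlations of Rprm with Ptchd1 and with Syne1 were -0.08 and -0.14, negative in the hippocampus (-0.30 and -0.32) and positive in the neocortex (0.40 and 0.47). On this scale the nearest genes were Hars2, Mcts1 and Dhtkd1 for Lrrc55 (r between 0.76 and 0.86), Epha7, Rad54l2 and Tmem2 for Ptchd1 (0.85 to 0.87), Ntpcr, Mcmdc2 and Stk11ip for Rprm (0.80 to 0.83), and Plekha5, Rnf128 and Lmo7 for Syne1 (0.82 to 0.91). No gene was on the list of more than 1 member.

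**Figure D3:**
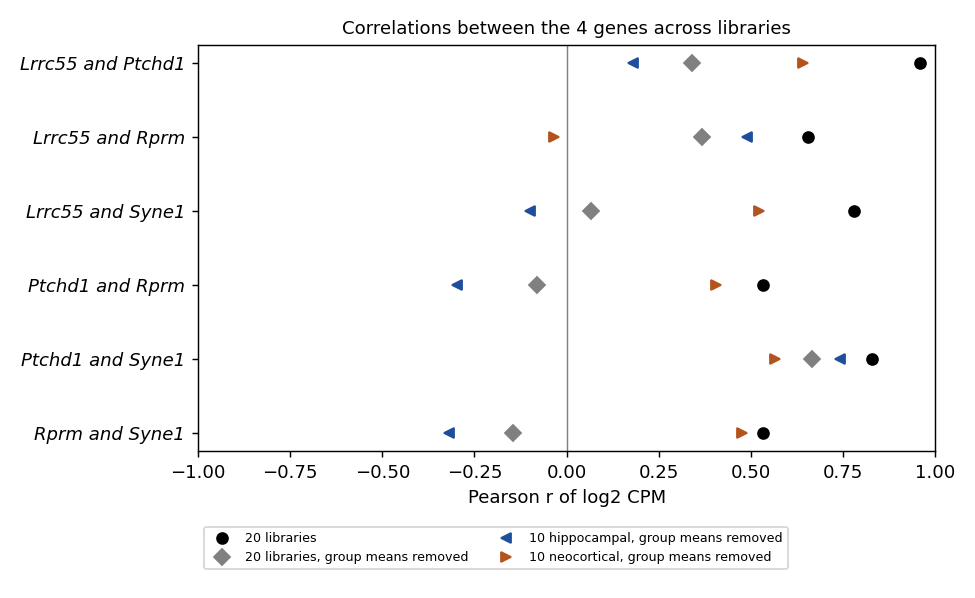
Pearson r of log2 CPM for the 6 pairs of genes, over 20 libraries as they are, with the group means removed, and within each region with the group means removed. Lrrc55 and Ptchd1 fall from 0.96 to 0.34 once the group means are removed, and Ptchd1 and Syne1 keep 0.66.

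Genes of the same families and pathways were taken as 4 lists of 59 genes, 58 of them in the count files. None was called for the genotype by edgeR in the hippocampus (46 tested, 9 with an unadjusted p under 0.05), in the neocortex (48 tested, 2 under 0.05) or for the difference between the regions (49 tested, 3 under 0.05). These were 19.6%, 4.17% and 6.12% of the genes tested, beside 12%, 10.4% and 3.75% of all genes. Without cTKO HP 4 and cTKO NCX 5, in fits chosen after seeing the data, none was called either and the hippocampal count at an unadjusted p under 0.05 was 7 of 45.

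For the BK channel, 4 genes could be tested in the hippocampus. The pore-forming subunit Kcnma1 was at 122 ± 9.94 CPM in control and 115 ± 19.8 CPM in cTKO hippocampus, a log2 change of -0.09, and the neuronal beta subunit Kcnmb4 had one of -0.10, which was also the median of the 4. Of the other gamma subunits, Lrrc38 had 0.669 CPM in control and 0.648 CPM in cTKO hippocampus and 2.51 and 2.52 CPM in the neocortex, while Lrrc26 and Lrrc52 reached at most 0.049 and 0.124 CPM in any library. Kcnma1, like Lrrc55, was lower in the hippocampus, by a regional log2 difference of -0.50 (FDR 1.37e-05), and so were Kcnmb4 and Lrrc38, while Kcnmb2 was higher.

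Of the Patched and Hedgehog genes, 16 were tested in the hippocampus, with a median log2 change of 0.06 against 0.0049 over all genes. Ptch1, the Hedgehog receptor, had a log2 value of 0.04 and Ptchd4, a relative of Ptchd1, one of 0.11. Shh, the ligand, had a log2 value of 0.87 in the hippocampus (unadjusted p = 0.00557, FDR 0.199 in edgeR's test) and -0.13 in the neocortex, at levels of only 0.970 to 3.15 CPM. Smo, which carries the signal from Ptch1, was at 25.7 to 29.8 CPM in control and 13.9 to 27.2 CPM in cTKO hippocampus, a log2 value of -0.47. Its neocortical value of 0.46 rested on cTKO NCX 5, a library with embryonic globins, at 34.7 CPM, while cTKO NCX 1 to 4 lay between 9.97 and 13.0 CPM. Without cTKO HP 4 and cTKO NCX 5 its values were -0.59 and -0.03. Between the regions, 3 of the 17 genes of this list were called higher and 7 lower in the hippocampus, Ptch1 among the latter.

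Of the Reprimo, p53 and G2 genes, 9 were tested in the hippocampus, with a median log2 change of 0.20. Rprml, the paralog of Rprm, was at 34.9 CPM in control and 40.1 CPM in cTKO hippocampus, a log2 change of 0.20. Trp53, which encodes p53, had a log2 value of 0.32 (FDR 0.247) and its target Cdkn1a 0.02. Without cTKO HP 4, a library with embryonic globins, the Trp53 value was 0.21. Gadd45a, another p53 target, had 0.73 in the hippocampus and -0.04 in the neocortex, with a difference of 0.77 at an unadjusted p of 0.00392 that did not pass over all genes. Cdk1 and Ccnb1, the kinase and the cyclin of entry into mitosis, were too low to test, with means of at most 2.51 CPM in any group. The cTKO means of Cdk1 had SDs larger than themselves, 2.27 ± 4.06 CPM in the hippocampus and 2.51 ± 5.03 CPM in the neocortex. Its highest library was at 11.5 CPM.

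All 17 nuclear envelope genes were tested, with a median log2 change of 0.07 in hippocampal and 0.04 in neocortical libraries. Syne2, which encodes nesprin-2, had values of 0.04 and 0.11, and Sun1, the inner membrane partner of nesprins, had -0.01 and -0.11. Lmnb1, a B-type lamin, had values of 0.91 in the hippocampus and 0.98 in the neocortex, without a call. Both rested on the libraries with embryonic globins, cTKO HP 4 at 32.4 CPM and cTKO NCX 5 at 45.5 CPM, while the other cTKO libraries had 6.99 to 8.59 CPM and the controls 5.68 to 8.48 CPM. Without these libraries the values were 0.18 and -0.03. Between the regions, Syne2, Sun1 and Sun2 were lower in the hippocampus, as Syne1 was, with log2 differences of -0.49, -0.62 and -0.59.

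**Figure D4:**
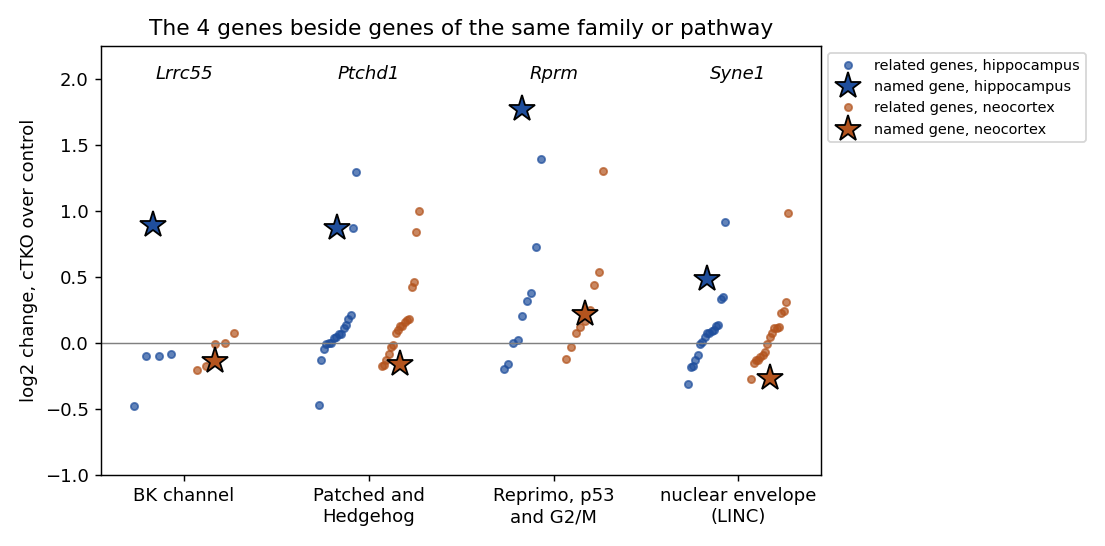
Log2 change of cTKO over control for each related gene that could be tested (dots) beside the member of its list (stars), in the hippocampus and the neocortex. The hippocampal star of Rprm, at 1.77, lies above all dots of its list, and that of Lrrc55, at 0.89, above the 4 tested BK channel genes. Those of Ptchd1, at 0.87, and Syne1, at 0.49, lie below the highest hippocampal dots of their lists, at 1.29 and 0.91. The members were picked for their genotype effect, so their place beside the dots is not a test.

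The nearest tested genes on each side of the members, Tnks1bp1 and Ptprj for Lrrc55, Prdx4 and Phex for Ptchd1, Arl6ip6 and Galnt13 for Rprm and Esr1 and Myct1 for Syne1, did not pass the test of the difference between the regions. Their log2 differences lay between -0.46 and 0.97. Esr1, 15303 bases from Syne1, is the closest of them.

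Markers of cell types that the dissections could hold were counted beside the members. Of 70 markers in 14 lists, 61 could be tested in the hippocampus and none was called for the genotype, with 22 at an unadjusted p under 0.05, which is 36.1% beside 12% of all genes. In the neocortex 1 of 56 was called, Wfs1 with a log2 change of 0.94 (FDR 0.0307 in edgeR's test). In the hippocampus, 2 of the 14 lists had summed levels that did not overlap between the genotypes. The share of all genes with every cTKO library below every control library was not computed. CA1 pyramidal markers summed to 532 to 748 CPM in control and 395 to 526 CPM in cTKO libraries, with 0 of 4 called, and thalamic markers to 57.9 to 64.2 CPM and 39.7 to 56.0 CPM, with 0 of 4 called. Neocortical libraries had 424 to 465 and 427 to 734 CPM of the CA1 markers and 68.6 to 79.6 and 68.2 to 76.8 CPM of the thalamic ones. Mpped1 and Wfs1 of the CA1 list were not higher in the hippocampus than in the neocortex, so the CA1 sum cannot by itself gauge CA1 cells. Deep-layer neocortical markers include Hs3st4 and Tle4, which were higher in the hippocampus, so their sum cannot by itself gauge neocortical RNA in a hippocampal library. That list summed to 216 to 257 CPM in control and 215 to 249 CPM in cTKO hippocampus. Striatal markers summed to 80.5 to 107 CPM and 70.6 to 130.5 CPM there, against 327 to 647 CPM in the neocortex.

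Dentate granule markers summed to 336 to 459 CPM in control and 370 to 469 CPM in cTKO hippocampus, and single markers of this list went both ways. C1ql2 and Trpc6 had log2 values of 0.77 and 0.41, and Dsp, Tdo2 and Calb1 had -0.83, -1.39 and -0.54, each at an unadjusted p under 0.05 and with 0 of 6 called in edgeR's test.

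Inhibitory neuron markers summed to 722 to 904 CPM in control and 804 to 1020.0 CPM in cTKO hippocampus, and excitatory neuron markers to 9221 to 10510 CPM and 8217 to 10112 CPM. Camk2a made up most of the excitatory sum, with means of 7979 and 6904 CPM and a log2 value of -0.21. Slc17a7, Neurod2 and Neurod6 of that list had log2 values of 0.22, 0.25 and 0.07, and none of the list was called. Astrocyte markers overlapped between the genotypes, with 1558 to 2000.2 CPM in control and 1590 to 4482 CPM in cTKO hippocampus. Gfap was at 426 ± 80.8 CPM in control and 1276 ± 1098 CPM in cTKO hippocampus, a log2 value of 1.58. Aqp4, Aldh1l1 and Slc1a3 had log2 values of 0.42, 0.02 and -0.20, and no astrocyte marker was called. Choroid plexus markers ranged from 80.6 to 2771 CPM in control and from 136 to 616 CPM in cTKO hippocampus. None of the markers in these lists had a group mean of 0 in the hippocampus. None of the 8 embryonic markers passed the filter on low counts, so none was tested. The 3 globins of this list were high in 1 library of each region only, and Hoxa9 and Hoxc9 were at 0 throughout. Whether these shifts had a part in the levels of Lrrc55, Ptchd1, Rprm and Syne1 was not tested.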

How the data were processed

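Libraries from 2 brain regions of cTKO mice and their littermate controls at 3 months were used, with 5 per genotype and region. The authors mapped single-end reads to mm10 with STAR 2.5.4a, produced raw counts per gene with HTSeq and deposited the counts of each library by gene symbol without normalization. The files hold 24421 genes, and no row names anything but a gene. Differential expression was computed with edgeR 4.0.16 (limma 3.58.1, R 4.3.3). The filter kept a gene whose CPM exceeded 1 in 5 or more libraries, TMM scaled the libraries, and the quasi-likelihood test was used, with p-values adjusted by the Benjamini-Hochberg method over all genes tested and an FDR threshold of 0.05. Each region was fitted alone for cTKO against control, and all 20 libraries together for the difference between the regions and for the regional difference averaged over genotypes. Log2 CPM used a prior count of 2. Total counts ranged from 12169474 to 25331954, and the floor of 3 counts covers counting error only.

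The members, the gene lists and the tests were chosen with earlier results of these data known. The named genes are the members, the other genes past the interaction threshold (1 of them is not reported here) and 2 just outside it, the 3 genes most like each member, genes of the related lists that were called or fixed by name, the nearest tested genes, the targeted genes, Xist and markers that moved with a member. A further few related genes (Shh, Smo, Trp53, Cdkn1a, Gadd45a, Cdk1, Ccnb1 and Lmnb1) and single cell type markers were named after their values were seen. Libraries of 1 group were compared over 40 pairs by chi-square, which gave 3.82 to 46.1 per degree of freedom, so none was counted as a duplicate. Positions are from GENCODE M21 and promoters from RefSeq GRCm38.p6. The alternatives were edgeR's likelihood ratio test, a robust fit, DESeq2 1.42.0 and its size factors, 2 other filters, the library number as a block, Xist as a covariate, 1 fit of all libraries, and libraries left out. Fits within the classes of Xist, and those of the related genes and markers without the libraries with embryonic globins, were chosen after seeing the data. The smaller fits within the classes of Xist used a filter that asked for fewer than 5 libraries. Each test was first tried on simulated data with known changes. Figures were drawn with matplotlib 3.10.9 in Python 3.11.15.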

Additional observations from a re-analysis of the deposited data

Results flagged for a closer look

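The change of all 4 genes in cTKO mice differed between the hippocampus and the neocortex, by 1.04 for Lrrc55, 1.04 for Ptchd1, 1.56 for Rprm and 0.76 for Syne1 on the log2 scale. The genes were selected on this difference, so it is not independent evidence.

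The level of Ptchd1 had 1 library far from the others in 2 groups. In control hippocampus, library 1 was low at 7.84 CPM, with a gap to its neighbour of 0.742 of the range of log2 CPM. In cTKO neocortex, library 3 was low at 18.6 CPM, with a gap of 0.747 of the range. These were 2 of 16 groups examined at a critical value of 0.71, and chance flags about 1 in 20 groups.

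In the neocortex, the mean log2 CPM of Rprm in cTKO libraries was above that of controls by 0.42 among libraries with low Xist and differed by -0.15 among those with high Xist. With low Xist all cTKO libraries lay above all controls and with high Xist both lay below them. Among those with high Xist was cTKO NCX 5, a library with embryonic globins. The difference between the classes was not tested.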

How the results depend on the processing

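The direction of all members was the same under all planned settings, in each region, in the difference between the regions and in the averaged regional difference. The difference between the regions passed the FDR threshold for Lrrc55, Ptchd1 and Rprm in 9 of 9 alternatives. For Syne1 it passed in 6 of 9, and the cause was not tested. The hippocampal change of Syne1 passed in 3 of 10 and its neocortical one in 1 of 10, with DESeq2 (FDR 0.0280).

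The number of genes with a difference between the regions was 26 with the likelihood ratio test and 26 with DESeq2 against 8. In the hippocampus it was 259 and 331 against 67, and 189 with 1 fit of all libraries. In the neocortex it was 167 and 221 against 26, 42 with no filter and 133 without cTKO HP 4 and cTKO NCX 5. With 1 library left out in turn, the counts ranged from 5 to 20 for the difference, from 15 to 149 in the hippocampus and from 7 to 133 in the neocortex. The difference count was 5 without control HP 1, control HP 2 or cTKO NCX 1, 15 without cTKO HP 3 and 20 without cTKO HP 5. The hippocampal count was 20, 23, 31, 15 and 39 without control HP 1 to 5, 31 without cTKO HP 2 and 149 without cTKO HP 5. The neocortical count was 7, 7, 9, 8 and 9 without control NCX 1 to 5 and 15, 7, 120, 13 and 133 without cTKO NCX 1 to 5. The averaged regional difference was called in 8708 to 9060 genes.

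The labels do not say what a library number marks. All 10 same-numbered pairs across the regions were in the same class of Xist. Deviations of same-numbered libraries of the regions correlated above 0.1 in 8 of 10 pairs (r from -0.07 to 0.40) and 8 libraries of 10 correlated best with their own number. The exceptions were cTKO 4 and cTKO 5 (r = -0.06 and -0.07), and cTKO HP 4 correlated best with cTKO NCX 5 (r = 0.58), the other library with embryonic globins. Xist differed between them, at 0.623 CPM in cTKO HP 4 and 1219 CPM in cTKO NCX 5. Between genotypes 4 of 10 pairs correlated above 0.1. Under a block for the library number, the counts were 18 for the difference and 12 in the neocortex, the FDR of the Syne1 difference was 0.0595 and the regional difference of Rprm was -0.23 (FDR 0.0134 in edgeR's test).

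Levels per kilobase moved with the longest GENCODE transcript linked to RefSeq as the length, except for Rprm, whose lengths are equal. With Spearman's rho, other genes entered the 3 nearest of each member, except for Syne1 over 20 libraries with the group means kept. The precision for the members, none of which is near the floor of 3 counts, is limited by 5 libraries per group.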
